A study of Mus musculus with 4 samples.

Results

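The TAM receptors and their ligands were represented by 4 genes, Axl, Mertk, Gas6 and Pros1, chosen by their gene symbols from the 19737 genes of the deposited matrix. All 4 passed the filter on low counts and were among the 14058 genes tested between groups of mice. They were described in brain microglia of 20 mice, 4 in each of 5 groups. All mice were homozygous for TfRmu/hu, a knock-in of a human sequence into the transferrin receptor on which the antibody transport vehicle (ATV) acts. WT mice carried no other change and were given ATV:ISO, an isotype control antibody on the ATV backbone, or ATV:4D9, an ATV version of the activating Trem2 antibody 4D9. AppSAA mice were also homozygous for a humanized App knock-in with disease mutations and were given ATV:ISO, 4D9 without the ATV, or ATV:4D9. The labels give ATV:4D9 as deglycosylated human IgG1 with LALA changes, 4D9 as the deglycosylated LALAPG form and the isotype control as a LALA form, so that the antibodies also differed in the Fc part. Live CD11b+ cells, by the protocol from cortex and hippocampus, were sorted (the design text names CD45 as well, and cortices) 24 h after 1 intravenous dose of 10 mg/kg. The deposited name of the isotype arm was ATV-DNP02, which was read as ATV:ISO although no deposited text states it. The study's reporting summary has an entry for AppSAA animals, male and 8 months old, that also names WT, and another for WT animals with TfRmu/hu that gives mixed sex and an age range ending at 8 months. Mouse 4 of the WT ATV:ISO group was recorded as female. The 4 pools each held 1 mouse of every group, so mouse 1 of each group came from pool 1, and so on. Nothing beyond the labels was known of litters, and the fitted p-values measure the spread between these mice.

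TAM receptors are tyrosine kinases of the cell surface, named after Tyro3, Axl and Mertk. They do not bind dying cells directly. Gas6 and protein S, the product of Pros1, act as bridges that hold phosphatidylserine on the target membrane with a vitamin K-dependent carboxylated domain and the receptor with the other end. Gas6 activates all TAM receptors, whereas protein S is known as a ligand of Tyro3 and Mertk. In microglia Mertk is regarded as the receptor of the resting state and Axl as a receptor induced by inflammation and interferon. Both drive engulfment and dampen cytokine and interferon signaling. Axl was among the genes the study itself prints for this experiment, so it was not an independent choice.

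The mice contributed 2193 to 6126 cells and 17150296 to 102446549 UMIs (unique molecular identifiers, here counted transcripts) each. Median UMIs per cell were 6859 to 8174 in WT ATV:ISO mice, 13479 to 17290 in WT ATV:4D9 mice, 8293 to 11553 in AppSAA mice given ATV:ISO or 4D9, and 13560 to 16475 in AppSAA ATV:4D9 mice. ATV:4D9 was thus accompanied by deeper cells, and a share of all UMIs and a number of UMIs per cell can move differently. The members' levels in whole mice are therefore given on both scales. CPM are counts per 1e6 UMIs, scaled by the trimmed mean of M values (TMM) as in the test. The other scale is UMIs per 1000 cells. Summed levels of 8 microglial markers were 22840 to 24070 CPM in WT ATV:ISO mice, 15600 to 16820 with ATV:4D9 in WT mice, 15250 to 17730 in AppSAA mice given ATV:ISO or 4D9, and 12580 to 14210 in AppSAA ATV:4D9 mice. Defining markers of other cells were near 0 (Cd3e 0.0297, Snap25 0.324, Aqp4 0.205 and Cldn5 0.168 CPM on average over the mice). Several marker lists of other cells moved with the groups, those of astrocytes and endothelium mostly through Slc1a3, Flt1 and Pecam1. The 4 astrocyte markers summed to 136.1 to 165.0 CPM in WT ATV:ISO mice, 61.4 to 75.7 in WT ATV:4D9 mice, 84.0 to 112.3 in AppSAA ATV:ISO mice and 62.9 to 93.3 in AppSAA ATV:4D9 mice, and the 4 endothelial markers to 18.3 to 24.5, 9.54 to 13.1, 37.5 to 52.4 and 13.2 to 26.2 CPM. The 4 oligodendrocyte markers, mostly Mbp, summed to 28.3 to 42.2 CPM in WT ATV:ISO mice and 15.1 to 27.8 in WT ATV:4D9 mice, without overlap, and to 31.6 to 45.6 and 15.7 to 40.4 CPM in AppSAA ATV:ISO and ATV:4D9 mice. The 4 monocyte markers summed to 3.95 to 9.08 CPM in AppSAA ATV:ISO mice and 9.85 to 13.6 in AppSAA ATV:4D9 mice, without overlap, and to 4.74 to 8.20 CPM in WT mice. The 4 neutrophil markers summed to 3.98 to 22.4 CPM over all mice. Their part in the results was not tested. The 6 border macrophage markers summed to 11.3 to 37.3 CPM per mouse, and cells with at least 5 of their UMIs numbered 496 and held 2.01% of Axl, 0.809% of Mertk, 1.88% of Gas6 and 0.852% of Pros1 UMIs. Of the cell barcodes, 543 sequences occurred in more than 1 pool (1089 cells), and no such cells had the same UMI total as their namesake.

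In the GRCm38 assembly Axl spans chr7:25757273-25788705 on the minus strand, Mertk chr2:128698956-128802894 on the plus strand, Gas6 chr8:13465374-13494490 on the minus strand and Pros1 chr16:62854307-62929346 on the plus strand. Gas6 overlaps Tmem255b, and Mertk overlaps the antisense gene Gm14011, in each case on the opposite strand. The 250 bases before the RefSeq transcription start (GRCm38.p6) are shown for the receptors, whose shares of UMIs moved in opposite directions with ATV:4D9 in WT mice. Capitals mark the GC box GGGCGG, read on both strands, which 32.7% of 32851 upstream windows of this length held. The Axl window is chr7:25788734-25788983 (minus strand) and the Mertk window chr2:128698665-128698914 (plus strand).
Axl: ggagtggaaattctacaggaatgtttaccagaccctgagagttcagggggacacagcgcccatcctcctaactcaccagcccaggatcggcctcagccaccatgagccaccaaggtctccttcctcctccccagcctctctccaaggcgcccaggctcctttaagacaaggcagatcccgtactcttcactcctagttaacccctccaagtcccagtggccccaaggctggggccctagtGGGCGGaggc
Mertk: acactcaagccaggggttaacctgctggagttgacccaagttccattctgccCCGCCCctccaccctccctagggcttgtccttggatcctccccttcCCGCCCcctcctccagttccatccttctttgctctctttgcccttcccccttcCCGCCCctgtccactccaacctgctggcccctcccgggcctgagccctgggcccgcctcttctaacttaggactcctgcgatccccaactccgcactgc
The Axl window held 1 GC box and the Mertk window 3. The interferon-stimulated response element, searched on both strands as GAAA followed after any 2 bases by GAAA, was in 2.98% of all windows and in none of those of the 4 genes. These matches describe letters only.

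The members called at an adjusted p of 0.05 (quasi-likelihood test of edgeR, Benjamini-Hochberg adjusted across the tested genes) differed between comparisons. With ATV:4D9 in WT mice, 63.3% of all genes tested were called, and among the members Axl rose and Mertk fell. In AppSAA against WT mice under ATV:ISO, 28.2% of genes were called, and Axl was the member among them. With ATV:4D9 against ATV:ISO in AppSAA mice, 55.1% of genes were called, and Mertk and Gas6 fell. Against 4D9 in AppSAA mice the share was 54.3%, and Mertk and Gas6 again fell. AppSAA ATV:4D9 against WT ATV:4D9 mice gave 11.8% of genes, Axl among them. The difference between the ATV:4D9 effects of the 2 genotypes was called for 9.14% of genes and for no member. With the pool as a block it was called for Axl, Mertk and Gas6, as given below. The shares of all genes called with the block are not given, except for 4D9 against ATV:ISO. Calls gained with the block therefore have no background to be read against. With the shares given above, the number of members called is not a result about the family. For 4D9 against ATV:ISO in AppSAA mice, 0% of genes were called by edgeR, with 0 by limma-voom and 1 by DESeq2. At an unadjusted p under 0.05 edgeR had 79 of the 14058 genes. With the pool as a block it had 280, and 0 were called. Evenly spread p-values would put more genes under 0.05 than either number. No member was called by any of these tests. Comparisons that use the same group of mice, such as those with AppSAA ATV:ISO, share its values and are not independent.

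**Figure D1:**
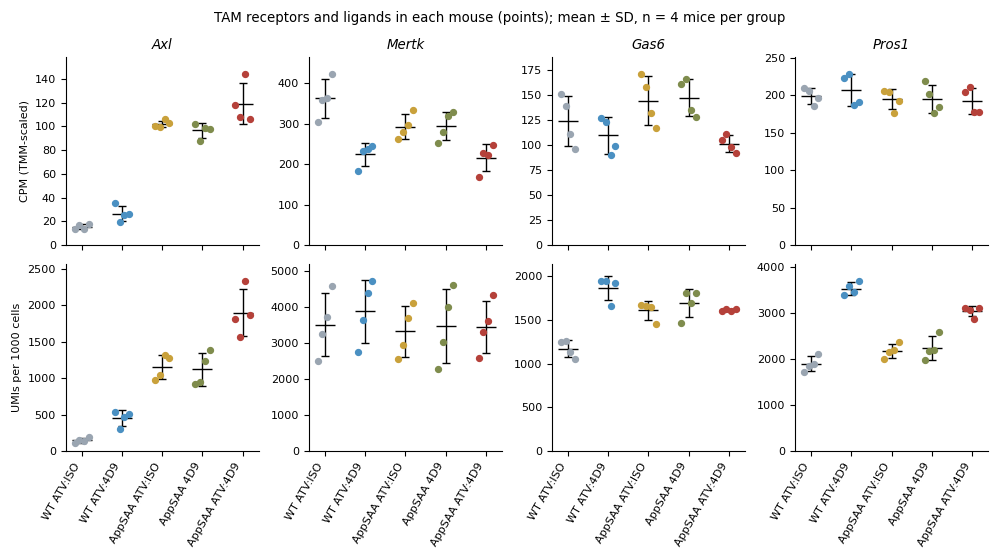
Level of each gene in each mouse as TMM-scaled CPM (upper row) and as UMIs per 1000 cells (lower row), by group; points are mice in the order of pools 1 to 4, bars the mean ± SD (n = 4). Axl separates the AppSAA from the WT groups on both scales, whereas Mertk is lower with ATV:4D9 in CPM only, with means between 3326 and 3885 UMIs per 1000 cells in all groups.

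Axl, the inducible receptor, had 13.2, 17.1, 13.9 and 17.6 CPM in the 4 WT ATV:ISO mice and 35.1, 19.4, 25.6 and 26.4 CPM in the WT ATV:4D9 mice. In the AppSAA mice it had 100.3, 99.7, 105.9 and 102.7 CPM with ATV:ISO, 101.9, 87.8, 98.6 and 98.2 CPM with 4D9, and 118.5, 107.8, 143.9 and 106.2 CPM with ATV:4D9. Every AppSAA mouse lay above every WT mouse, and both ATV:4D9 groups lay above the ATV:ISO group of the same genotype without overlap. In AppSAA mice the gap was narrow, 105.9 against 106.2 CPM. Without TMM factors these AppSAA groups overlapped, with 92.7 to 108.6 CPM for ATV:ISO and 100.5 to 136.5 CPM for ATV:4D9. AppSAA ATV:ISO mice had 6.61 times the mean CPM of WT ATV:ISO mice, and the fitted log2 fold change was 2.72 (SE 0.145, adjusted p = 4.88e-11). Under ATV:4D9 the same genotype difference was 2.16 on the log2 scale (SE 0.14, adjusted p = 1.08e-08). With ATV:4D9 Axl rose in WT mice by a log2 fold change of 0.78 (SE 0.14, adjusted p = 6.4e-05). In AppSAA mice the corresponding values were 0.22 (SE 0.13, adjusted p = 0.167) against ATV:ISO and 0.30 (SE 0.13, adjusted p = 0.0614) against 4D9. The latter passed with the pool as a block (0.30, adjusted p = 0.0288). Without AppSAA ATV:4D9 mouse 4 it was 0.37 (adjusted p = 0.0339).

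The AppSAA comparison for Axl depended on how cells were weighted. After cells over 25000 UMIs were left out, the log2 fold change of ATV:4D9 against ATV:ISO was 0.41 (adjusted p = 0.014), and from the mean of per-cell CPM it was 0.57 (limma, adjusted p = 0.00341). In UMIs per 1000 cells Axl averaged 1155 ± 166.5 (SD, n = 4) with ATV:ISO and 1896 ± 321 with ATV:4D9 in AppSAA mice, again without overlap. Scaled by the number of cells, a setting added after the data were seen, the change was 0.71 (SE 0.19, adjusted p = 0.00274), against a median of 0.47 over all genes on that scale. The difference between the genotypes in the response of Axl to ATV:4D9 was -0.56 on the log2 scale (SE 0.19, adjusted p = 0.0752), a smaller rise in AppSAA mice. It passed with the pool as a block (-0.54, adjusted p = 0.0278) and by DESeq2 (-0.60, adjusted p = 0.0269). Scaled by cells it was -0.90 (adjusted p = 0.0269), where the median gene was at -0.30. It also passed without WT ATV:4D9 mouse 2 (-0.69, adjusted p = 0.0134) or without AppSAA ATV:4D9 mouse 3 (-0.67, adjusted p = 0.0381).

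The 6 deposited clusters were used by number, with the gene lists that were highest in each serving as description. Cluster 0 had the highest summed level of 6 homeostatic genes (11800 CPM), cluster 1 of 6 plaque-response genes (6504 CPM), cluster 3 of 6 immediate early genes (18730 CPM), cluster 4 of 5 cell cycle genes (930.9 CPM) and cluster 5 of 6 interferon genes (10260 CPM). Cluster 2 led in none of these lists. In WT ATV:ISO mice cluster 0 held 60.4% ± 2.6 (SD, n = 4) and cluster 3 35.8% ± 2.6 of cells. In WT ATV:4D9 mice clusters 2 and 4 held 47.8% ± 3.5 and 40.0% ± 4.4 instead. Cluster 1 held 38.3% ± 4.6 of cells in AppSAA ATV:ISO mice and 13.5% ± 3.1 in AppSAA ATV:4D9 mice, where cluster 5 held 22.4% ± 4.3. Levels within clusters are the CPM of the cluster's own UMIs, in mice with at least 20 cells there.

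**Figure D2:**
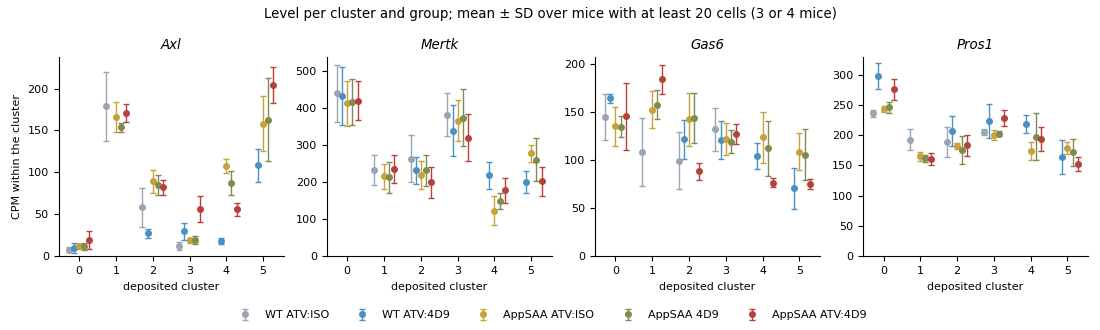
CPM of each gene within the 6 deposited clusters, by group, as mean ± SD over mice with at least 20 cells (groups with 3 or 4 such mice). Axl is highest in clusters 1 and 5 and in clusters 2, 4 and 5 higher in AppSAA than in WT mice given ATV:4D9, Mertk is highest in cluster 0 and next in cluster 3 in every group shown, and Gas6 in clusters 2, 4 and 5 is lower with ATV:4D9 than with ATV:ISO in AppSAA mice.

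Among the clusters Axl was lowest in cluster 0, with group means of 8.09 to 19.8 CPM, and highest in clusters 1 (153.7 to 178.8 CPM in 4 groups) and 5 (108.4 to 204.4 CPM in 4 groups). The level in cluster 1 was close in the groups that filled it, with 174.3, 139.7, 177.9 and 171.7 CPM in AppSAA ATV:ISO mice and 158.6, 165.6, 177.4 and 182.2 CPM in AppSAA ATV:4D9 mice, which overlapped. The fitted difference there was 0.09 (SE 0.10, adjusted p = 0.889), in a contrast that called 1.51% of genes. In 3 WT ATV:ISO mice the few cells of cluster 1 (27 to 62 per mouse) had 138.0, 177.5 and 221.0 CPM. The 1 WT ATV:4D9 mouse with enough cells there (21) had 103.4 CPM, below every AppSAA mouse. A cluster is built from expression, so its level is a description.

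Genotype differed within the clusters that ATV:4D9 filled. In cluster 2, where 2.07% of genes were called, WT ATV:4D9 mice had 34.0, 22.3, 28.0 and 25.3 CPM of Axl and AppSAA ATV:4D9 mice 85.2, 74.9, 93.6 and 74.7 CPM. Both groups were far apart, and the log2 fold change was 1.66 (SE 0.15, adjusted p = 3.04e-07). In cluster 4, where 2.76% were called, the difference was 1.70 (SE 0.13, adjusted p = 5.58e-08), from 13.03 to 21.8 CPM in WT to 50.9 to 66.8 CPM in AppSAA mice. In cluster 5, where 6.87% were called, it was 0.97 (SE 0.17, adjusted p = 0.000488), from 81.1 to 126.2 CPM to 187.6 to 235.1 CPM. No other member was called in these 3 contrasts. Against ATV:ISO, Axl was lower with ATV:4D9 in cluster 2 of WT mice, from 34.9 to 90.3 CPM to 22.3 to 34.0 CPM. It was also lower in cluster 4 of AppSAA mice, from 97.7 to 117.3 CPM to 50.9 to 66.8 CPM. Neither pair overlapped in CPM or was tested, and the ATV:ISO mice had 23 to 42 and 27 to 74 cells there. Per 1000 cells the means went from 783.6 to 443.9 UMIs in the WT pair, with overlap. In the AppSAA pair they went from 2360 to 1164, without. In AppSAA mice cluster 2 gave -0.08 (SE 0.16, adjusted p = 0.798), and in cluster 5 means were 158.0 and 204.4 CPM, with overlap. Per 1000 cells the cluster 5 means were 1909 UMIs with ATV:ISO and 3394 with ATV:4D9, without overlap and not tested.

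In cluster 0 Axl stayed at low levels. The contrasts there called 1.47% of genes for ATV:4D9 in WT mice, 0.274% for AppSAA against WT under ATV:ISO, and 0.667% for ATV:4D9 against ATV:ISO in AppSAA mice. Axl gave log2 fold changes of 0.14 (adjusted p = 0.939), 0.59 (adjusted p = 0.733) and 0.74 (adjusted p = 0.443). With the pool as a block the second was 0.58 (adjusted p = 0.0017) and the third 0.83 (adjusted p = 0.0224). The values with ATV:4D9 rest on few UMIs of Axl, 34 in all WT ATV:4D9 mice (60 to 186 cells per mouse) and 62 in all AppSAA ATV:4D9 mice (37 to 195 cells per mouse), of which mouse 1 had 2. In cluster 3, where no test was planned, Axl was 8.9 to 19.0 CPM in WT ATV:ISO mice, 18.7 to 43.5 in WT ATV:4D9 mice with 104 to 242 cells each, 14.4 to 21.8 in AppSAA ATV:ISO mice and 36.8 to 74.1 in AppSAA ATV:4D9 mice, with 68 to 268 cells per mouse in the last group.

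Mertk, which mediates engulfment of apoptotic cells and is a known target of the liver X receptors (LXR), had 303.8, 359.6, 363.8 and 421.6 CPM in WT ATV:ISO mice and 181.8, 231.2, 237.7 and 244.4 CPM in WT ATV:4D9 mice. The groups did not overlap, and the log2 fold change was -0.70 (SE 0.13, adjusted p = 7.14e-05). AppSAA ATV:ISO mice had 261.9, 279.1, 296.5 and 332.5 CPM, AppSAA 4D9 mice 251.2, 279.0, 318.6 and 327.8 CPM, and AppSAA ATV:4D9 mice 169.1, 227.3, 221.8 and 246.1 CPM. With ATV:4D9 the AppSAA mice lay below both other AppSAA groups without overlap, by -0.44 (SE 0.125, adjusted p = 0.00597) against ATV:ISO and -0.45 (SE 0.125, adjusted p = 0.00536) against 4D9. In each group the mouse of pool 1 was the lowest, and in each group the mouse of pool 4 the highest.

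AppSAA against WT under ATV:ISO gave -0.31 for Mertk (SE 0.125, adjusted p = 0.0723), with overlapping groups and the AppSAA mouse lower in 4 of 4 pools. With the pool as a block it was -0.30 (adjusted p = 3.51e-05). It also passed without WT ATV:ISO mouse 1 (-0.38, adjusted p = 0.0346) or without AppSAA ATV:ISO mouse 4 (-0.38, adjusted p = 0.047). The response to ATV:4D9 differed between genotypes by 0.26 (SE 0.18, adjusted p = 0.445), and by 0.25 with the block (adjusted p = 0.00834), a smaller fall in AppSAA mice.

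The fall of Mertk was seen in its share of UMIs and not in UMIs per cell. Per 1000 cells Mertk averaged 3511 ± 868 UMIs (SD, n = 4) in WT ATV:ISO mice, 3885 ± 873.5 in WT ATV:4D9 mice, 3326 ± 710 in AppSAA ATV:ISO mice, 3477 ± 1034 in AppSAA 4D9 mice and 3455 ± 721 in AppSAA ATV:4D9 mice. Mertk ranges overlapped between all groups on this scale. Scaled by cells, the log2 fold change with ATV:4D9 was 0.15 in WT mice (SE 0.23, adjusted p = 0.58) and 0.05 in AppSAA mice (SE 0.23, adjusted p = 0.858), while the median gene moved by 0.79 and 0.47. These differences were smaller than their errors, in a fit without the pool as a block. The scale of cells was not tested with the block. By pool, WT mice had 2501, 3252, 3719 and 4574 UMIs per 1000 cells with ATV:ISO and 2765, 3647, 4397 and 4730 with ATV:4D9, higher in every pool. AppSAA mice had 2555, 2934, 3694 and 4119 with ATV:ISO and 2582, 3313, 3603 and 4323 with ATV:4D9, lower in pool 3 only.

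**Figure D3:**
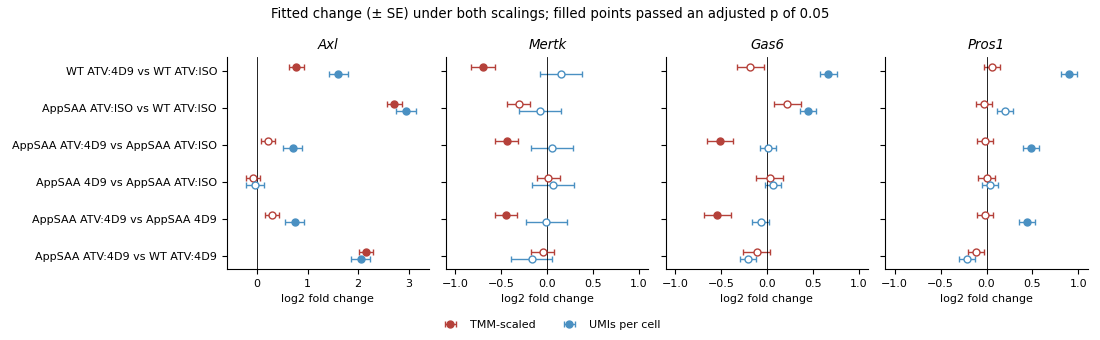
Fitted log2 fold change (± SE) of each gene in 6 comparisons, with TMM scaling (red) and scaled by the number of cells (blue); filled points passed an adjusted p of 0.05. Axl lies right of 0 on both scales except with 4D9, Mertk and Gas6 lie left of 0 with ATV:4D9 in AppSAA mice under TMM and near 0 per cell, and Pros1 passes only on the scale of cells.

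Among clusters Mertk was highest in cluster 0, with group means of 412.1 to 439.1 CPM, followed by cluster 3 with 319.6 to 382.3 CPM. In clusters 1, 2, 4 and 5 the means were 123.4 to 277.9 CPM in groups with 3 or 4 mice. In UMIs per 1000 cells the order differed. In AppSAA ATV:ISO mice Mertk then averaged 3117 in cluster 0, 3352, 3336, 3562 and 3334 in clusters 1, 2, 3 and 5, and 2769 in cluster 4. Within cluster 0 the WT groups had 345.7, 430.9, 449.4 and 530.5 CPM (ATV:ISO) and 328.6, 425.0, 464.0 and 513.5 CPM (ATV:4D9), nearly the same value in each pool. The fitted difference was 0.02 (SE 0.12, adjusted p = 0.986). None of the 8 planned contrasts within clusters called Mertk, with log2 fold changes of -0.22 to 0.17. In cluster 2 ATV:4D9 against ATV:ISO in AppSAA mice, where 13.2% of genes were called, gave -0.11 for Mertk (SE 0.14, adjusted p = 0.661).

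The levels in clusters of one group were also combined with the cluster shares of another. Shares here are each cluster's part of all UMIs of a mouse, not of its cells. This is a description added after the data were seen, in CPM without TMM factors. When the cluster levels of WT ATV:ISO mice were combined with the cluster shares of WT ATV:4D9 mice, Mertk came to 251.8 CPM, beside 403.6 CPM in WT ATV:ISO mice and 230.2 CPM in WT ATV:4D9 mice. For Axl this gave 55.1 CPM, above the 27.1 CPM that the WT ATV:4D9 mice had. The reverse, WT ATV:4D9 levels at WT ATV:ISO shares, gave 20.55 CPM of Axl and 371.7 CPM of Mertk. WT ATV:ISO mice had 17.2 and 403.6 CPM. For the genotype difference under ATV:ISO, WT cluster levels at AppSAA shares gave 102.4 CPM of Axl, where AppSAA mice had 99.9 and WT mice 17.2 CPM. AppSAA cluster levels at WT shares gave 23.85 CPM of Axl. For ATV:4D9 in AppSAA mice, AppSAA ATV:ISO levels at ATV:4D9 shares gave 222.6 CPM of Mertk and 128.2 CPM of Gas6. The AppSAA ATV:4D9 mice had 202.5 and 94.5 CPM. In reverse, ATV:4D9 levels at ATV:ISO shares gave 292.5 CPM of Mertk and 152.7 CPM of Gas6. The AppSAA ATV:ISO mice had 286.6 and 140.2 CPM. The smallest cluster of WT ATV:ISO mice held 35 cells over the 4 mice, so that these products rest on few cells.

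To compare detection between cells of unequal depth, cells were thinned to 3000 UMIs, which left out 829 cells (133 WT ATV:ISO, 133 WT ATV:4D9, 181 AppSAA ATV:ISO, 152 AppSAA 4D9 and 230 AppSAA ATV:4D9). An Axl UMI was then found in 3.47% ± 0.83 (SD, n = 4) of WT ATV:ISO cells, 6.52% ± 1.17 of WT ATV:4D9 cells, 16.9% ± 1.7 of AppSAA ATV:ISO cells, 16.3% ± 1.4 of AppSAA 4D9 cells and 24.0% ± 3.0 of AppSAA ATV:4D9 cells. Without thinning the lowest and highest mouse had 6.16% and 64.2%. A Mertk UMI was found in 67.5% ± 5.7, 49.2% ± 5.6, 57.0% ± 4.9, 56.6% ± 6.0 and 44.9% ± 7.2 of thinned cells in the same order of groups, and in 79.8% to 95.3% of the cells of each mouse without thinning.

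**Figure D4:**
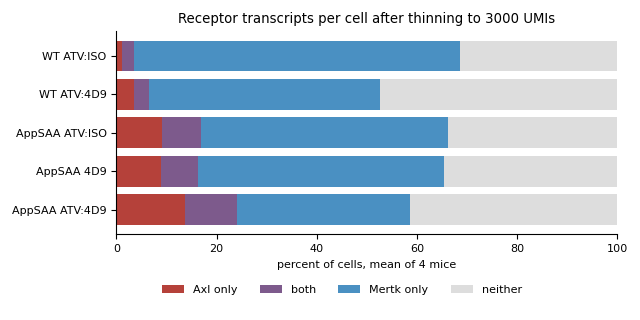
Percent of cells with a UMI of Axl only, of both receptors, of Mertk only or of neither after thinning to 3000 UMIs, by group, as the mean of 4 mice. The share with Axl, alone or with Mertk, is lowest in WT ATV:ISO mice and highest in AppSAA ATV:4D9 mice, where the share with Mertk only is lowest.

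Both receptors were found in 2.31% ± 0.68 (SD, n = 4) of thinned cells of WT ATV:ISO mice, 3.02% ± 0.41 with ATV:4D9 in WT mice, 7.85% ± 1.02 in AppSAA ATV:ISO mice, 7.41% ± 1.59 in AppSAA 4D9 mice and 10.4% ± 2.3 in AppSAA ATV:4D9 mice. Mertk alone was found in 65.2% ± 5.0 of cells in WT ATV:ISO and 34.6% ± 5.5 in AppSAA ATV:4D9 mice, and Axl alone in 1.16% ± 0.16 and 13.6% ± 2.2. In AppSAA ATV:ISO mice Mertk was found in 46.2% ± 2.2 of cells with an Axl UMI and in 59.3% ± 5.7 of the others, ranges that did not overlap (44.4% to 49.2% and 52.8% to 64.3%). In WT ATV:ISO mice the corresponding shares were 65.8% ± 4.1 and 67.5% ± 5.8, and in AppSAA ATV:4D9 mice 43.1% ± 7.5 and 45.5% ± 7.1, which overlapped in both groups. Both shares come from the same mouse. Compared within mice, Mertk was found less often among cells with an Axl UMI in every mouse except WT ATV:ISO mouse 1 (63.6% against 60.3%). These shares describe detection in the same libraries and were not tested.

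Gas6, the ligand common to all TAM receptors, had 151.0, 139.2, 110.8 and 96.5 CPM in WT ATV:ISO mice, and 127.6, 123.2, 89.7 and 98.8 CPM in WT ATV:4D9 mice. The groups overlapped, and the log2 fold change was -0.18 (SE 0.15, adjusted p = 0.3). With the pool as a block it was -0.17 (adjusted p = 0.0168). AppSAA mice had 170.8, 157.9, 131.8 and 116.8 CPM with ATV:ISO, 160.8, 166.3, 134.9 and 128.3 CPM with 4D9, and 104.9, 111.2, 98.4 and 92.1 CPM with ATV:4D9. The ATV:4D9 group lay below both others without overlap, by -0.51 against ATV:ISO (SE 0.15, adjusted p = 0.00628) and -0.54 against 4D9 (SE 0.15, adjusted p = 0.00416). Without cells over 25000 UMIs the first was -0.35 (adjusted p = 0.0512).

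Pools 1 and 2 had more Gas6 than pools 3 and 4 in every group. The genotype difference under ATV:ISO was 0.22 (SE 0.15, adjusted p = 0.293) and, with the pool as a block, 0.22 (adjusted p = 0.00576), with the AppSAA mouse higher in 4 of 4 pools. The ATV:4D9 response in AppSAA minus that in WT mice was -0.33 on the log2 scale (SE 0.21, adjusted p = 0.396), and with the block -0.32 (adjusted p = 0.00868). Per 1000 cells Gas6 averaged 1170 ± 99.7 UMIs (SD, n = 4) in WT ATV:ISO mice, 1864 ± 137 in WT ATV:4D9 mice, 1604 ± 105 in AppSAA ATV:ISO mice, 1689 ± 164 in AppSAA 4D9 mice and 1610 ± 11.5 in AppSAA ATV:4D9 mice. Scaled by cells, Gas6 rose with ATV:4D9 in WT mice (0.67, adjusted p = 9.02e-07) and gave 0.01 in AppSAA mice (adjusted p = 0.967). The median gene moved by more, 0.79 and 0.47. AppSAA against WT under ATV:ISO gave 0.45 for Gas6 on the scale of cells (adjusted p = 0.00055). These groups did not overlap on that scale, and the median gene moved by 0.18. The genotype by treatment difference was -0.67 on this scale (adjusted p = 0.00114), with the median gene at -0.30.

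Within clusters Gas6, unlike Mertk, was called in a planned contrast, though the genes were not tested against each other. In cluster 2 AppSAA ATV:ISO mice had 156.4, 169.2, 137.0 and 106.7 CPM of Gas6. AppSAA ATV:4D9 mice had 89.0, 99.0, 78.3 and 87.0 CPM, without overlap. The log2 fold change was -0.63 (SE 0.16, adjusted p = 0.0103). In cluster 1 the same comparison gave 0.32 (SE 0.13, adjusted p = 0.362), and 0.33 with the pool as a block (adjusted p = 0.00759), with group means of 152.2 ± 19.2 (SD, n = 4) for ATV:ISO and 183.8 ± 15.5 for ATV:4D9. AppSAA against WT mice under ATV:4D9 gave -0.38 in cluster 2 (adjusted p = 0.36) and -0.37 in cluster 4 (adjusted p = 0.237). With the block these were -0.37 (adjusted p = 0.00182) and -0.36 (adjusted p = 0.0135). Over clusters the group means of Gas6 ranged from 70.6 CPM (cluster 5, WT ATV:4D9) to 183.8 CPM (cluster 1, AppSAA ATV:4D9) in groups with 3 or 4 mice. ATV:4D9 against ATV:ISO in AppSAA mice was not tested in clusters 4 and 5. In cluster 5 group means in CPM fell without overlap, from 277.9 to 202.0 CPM for Mertk and from 108.8 to 75.2 CPM for Gas6. Per 1000 cells the means there were 3334 and 3351 UMIs for Mertk and 1283 and 1245 for Gas6. The ATV:ISO mice had 46 to 233 cells in cluster 5. The share of all genes without overlap is not given. In cluster 4 Mertk went from 123.4 to 177.6 CPM, with overlap, and Gas6 from 123.5 to 76.4 CPM, without. Per 1000 cells the cluster 4 means were 2769 and 3694 UMIs for Mertk and 2717 and 1590 for Gas6.

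Pros1, which encodes the anticoagulant protein S, was called in none of the comparisons of whole mice. It had 208.9, 205.7, 185.6 and 195.4 CPM in WT ATV:ISO mice and 222.6, 227.5, 186.6 and 191.3 CPM in WT ATV:4D9 mice. In the AppSAA groups it ranged from 176.3 to 205.2 CPM with ATV:ISO, 176.3 to 218.1 CPM with 4D9 and 176.9 to 210.9 CPM with ATV:4D9. All groups overlapped, and the 6 comparisons of groups gave log2 fold changes of -0.11 to 0.06, none of them called. With the pool as a block, AppSAA against WT under ATV:4D9 gave -0.11 (adjusted p = 0.0339), the AppSAA mouse being lower in 4 of 4 pools. Per 1000 cells Pros1 went from 1899 ± 166 (SD, n = 4) to 3532 ± 142 UMIs with ATV:4D9 in WT mice and from 2180 ± 152 to 3044 ± 115 in AppSAA mice, both without overlap. Scaled by cells these changes were 0.90 (adjusted p = 1.4e-08) and 0.48 (adjusted p = 8.2e-05), against 0.79 and 0.47 for the median gene. Their difference was -0.41 (adjusted p = 0.0265), where the median gene was at -0.30.

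Among clusters Pros1 was highest in cluster 0 in CPM. Per 1000 cells cluster 0 was the lowest in AppSAA ATV:ISO mice, with a mean of 1822 UMIs, and cluster 4 the highest, with 3772. In cluster 0 WT mice had 237.4, 238.0, 227.6 and 240.9 CPM with ATV:ISO and 282.9, 325.8, 278.8 and 303.5 CPM with ATV:4D9, without overlap. The log2 fold change was 0.39 (SE 0.09, adjusted p = 0.0188). It rested on few cells, 60 to 186 per ATV:4D9 mouse, and missed the threshold when WT ATV:ISO mouse 2 (0.39, adjusted p = 0.0526) or 3 (0.35, adjusted p = 0.0779), or WT ATV:4D9 mouse 1 (0.38, adjusted p = 0.0584), 2 (0.33, adjusted p = 0.115) or 4 (0.38, adjusted p = 0.0631) was left out. In AppSAA mice the cluster 0 difference was 0.24 (adjusted p = 0.314), and 0.24 with the block (adjusted p = 0.0066).

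Tyro3, the third TAM receptor, was close to absent. The WT ATV:ISO mice had 0, 3, 1 and 0 UMIs of it and the AppSAA ATV:ISO mice 0, 0, 3 and 6, against 19, 13, 20 and 28 in WT ATV:4D9 mice and 17, 15, 6 and 31 in AppSAA ATV:4D9 mice. Its mean was 0.294 CPM or less in each group. In CPM the ATV:4D9 groups did not overlap with the ATV:ISO groups. Tyro3 passed the filter on low counts only through the ATV:4D9 mice, where it was high, so its levels are given as a description with no test. At these counts the size of a fold change depends on the prior count and is not given.

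The rest of the pathway was taken as 49 listed genes, of which 41 were tested. Tyro3 and Twist2 passed the filter on low counts only through groups in which they were high and are left out of the counts, which leaves 39. With ATV:4D9 in WT mice 6 rose and 15 fell, in AppSAA against WT mice under ATV:ISO 8 rose and 6 fell, and with ATV:4D9 against ATV:ISO in AppSAA mice 8 rose and 10 fell. Against 4D9 in AppSAA mice 8 rose and 11 fell, and in AppSAA against WT mice under ATV:4D9 6 rose and 2 fell. The shares of the list called in these 5 comparisons were 53.8%, 35.9%, 46.2%, 48.7% and 20.5%, beside 63.3%, 28.2%, 55.1%, 54.3% and 11.8% of all genes tested. Median log2 fold changes in the first 3 comparisons were -0.14, -0.05 and -0.04, beside -0.05, -0.06 and -0.03 over all genes. All these counts are on the TMM scale. Scaled by cells, most of the 39 genes were called as higher with ATV:4D9 in WT mice, and Cd300a alone as lower. The median gene moved by 0.79 there. Among 11 receptors and bridging molecules for phosphatidylserine counted, 2 rose and 5 fell with ATV:4D9 in WT mice (63.6%, beside 63.3% of all genes). With AppSAA under ATV:ISO 5 rose and 2 fell (63.6%, beside 28.2%). Per cell most of the 11 were called as higher with ATV:4D9 in WT mice, and Cd300a alone as lower. Mfge8, a bridging molecule for integrins, changed by -0.30 with ATV:4D9 in WT, by 0.77 with AppSAA and by -0.65 with ATV:4D9 in AppSAA mice, all called. Per cell these were 0.55, 1.01 and -0.14 (adjusted p = 0.286 for the last), so that the direction in WT mice and the call in AppSAA mice with ATV:4D9 depended on the scale. Cd300lf, an inhibitory phosphatidylserine receptor, rose in the same 3 comparisons by 1.73, 1.41 and 1.37, and its relative Cd300a fell in them, by 1.26, 0.59 and 0.71 on the log2 scale. Per cell both genes kept these directions and calls, with smaller values for Cd300a (-0.42, -0.35 and -0.20). Cd300lb rose with AppSAA (1.44) and fell with ATV:4D9 in AppSAA mice (log2 fold change -1.01, per cell -0.50 with adjusted p = 0.0548). Lgals3, the galectin that also binds Mertk, rose by 1.19 with ATV:4D9 in WT mice and by 2.29 with AppSAA.

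Of the 5 genes for vitamin K-dependent carboxylation of the ligands and for shedding of the receptors, 3 rose with ATV:4D9 in AppSAA mice, a comparison that called 55.1% of all genes tested. They were Vkorc1l1 (0.44), which recycles vitamin K, and the sheddase genes Adam17 (0.31) and Adam10 (0.17). Vkorc1, the main vitamin K epoxide reductase, rose with AppSAA under ATV:ISO (0.67), and the carboxylase gene Ggcx was called in none of the 7 contrasts of whole mice. Of 7 tested genes for LXR and PPAR signaling and lipid efflux, 6 fell with ATV:4D9 in WT mice, a comparison that called 63.3% of all genes tested. Among them were Rxra, the LXR partner (log2 fold change -1.27), and the sterol exporter Abca1 (-0.68). Per cell Rxra was at -0.42 (adjusted p = 0.127), and the other 5 were above 0, where the median gene was at 0.79. With ATV:4D9 in AppSAA mice Rxra changed by -0.79 and was called, but per cell by -0.29 (adjusted p = 0.324). Nr1h3, which encodes LXR alpha, rose by 0.73.

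Of 5 genes of interferon and cytokine feedback counted, 2 rose and 1 fell with ATV:4D9 in WT mice, beside 63.3% of all genes called, and 3 rose and 1 fell in AppSAA mice, beside 55.1%. Ifnar1 and Ifnar2 encode the subunits of the type I interferon receptor, and the first fell in WT mice (log2 fold change -0.35, per cell 0.49) and the second in AppSAA mice (-0.27, per cell 0.24), so that both directions depended on the scale. Socs3, a cytokine brake induced by TAM signaling, rose with ATV:4D9 in WT (0.63) and AppSAA mice (1.00), and Socs1, its relative, rose in AppSAA mice (0.94). Twist2, a transcriptional repressor induced through Axl, was at 0 CPM in all WT ATV:ISO mice, 0.133 to 0.354 CPM in AppSAA ATV:ISO mice, 0.239 to 0.402 CPM in AppSAA 4D9 mice and 0 to 0.0255 CPM in AppSAA ATV:4D9 mice. It passed the filter only through the AppSAA ATV:ISO and 4D9 mice, so these levels too are a description. Of 11 tested genes of engulfment signaling, 3 fell and 1 rose with ATV:4D9 in WT mice, again beside 63.3% of all genes. Per cell most of them were called as higher and none as lower in that comparison, where the median gene moved by 0.79. Elmo1, part of the Rac1 activating complex, changed by -0.51 there (per cell 0.34, adjusted p = 0.133) and by -0.62 with AppSAA (per cell -0.39, adjusted p = 0.181), and its partner Dock1 rose by 0.41 in WT mice. In AppSAA against WT mice under ATV:4D9 the called genes included Lgals3 (1.07) and Cd300lf (1.06), which per cell missed the threshold (0.95, adjusted p = 0.108, and 0.93, adjusted p = 0.0599). The interaction of genotype and ATV:4D9 was called for 3 of the 39 genes (7.69%, beside 9.14% of all genes), among them Abca1 (0.81) and Itgb3 (-0.56). Per cell these were 0.46 (adjusted p = 0.415) and -0.91 (adjusted p = 0.00537), so that the call for Abca1 did not hold on that scale. No gene of these lists was called for 4D9 against ATV:ISO.

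The genes whose level followed each member most closely over the 20 mice were listed among 8027 others with a mean of at least 10 CPM, by Pearson's r of log2 CPM, as a description. For Axl they were B2m (r = 0.982), the light chain of MHC class I, Grn (0.960), which encodes progranulin, and Ch25h (0.959), a cholesterol hydroxylase. For Mertk they were Zmiz1 (0.989), Ankrd44 (0.986) and Tbl1xr1 (0.984). For Gas6 they were Dhrs7 (0.927), Pmp22 (0.926) and Rtl8a (0.925), and for Pros1 Emc3 (0.937), Txndc15 (0.928) and Kcnk13 (0.882). The points share libraries, groups and pools.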

How the data were processed

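Single-cell RNA sequencing counts of sorted brain cells from 20 mice were used. The deposited matrix holds raw UMI counts, made by the authors with Cell Ranger 6.1.1 on mm10 from pools multiplexed with lipid-bound oligonucleotides and filtered, integrated and clustered in Seurat. The deposited annotation gave the mouse, group, pool and cluster of each of 74758 cells. The deposited percent of mitochondrial UMIs per cell, computed by the authors, was read and used in no test. Doublets were not called again here, and 7141 cells over 25000 UMIs were left out as an alternative.

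Cells of a mouse, in total or within a cluster of at least 20 cells, had their counts added up, and the sums were tested with edgeR 4.0.16 (filterByExpr, TMM factors, quasi-likelihood test, all 5 groups in 1 fit, Benjamini-Hochberg adjustment over all genes tested, threshold 0.05). Alternatives were DESeq2 1.42.0, limma-voom 3.58.1, size factors by relative log expression, no filter on low counts, the pool as a block, the mean of per-cell CPM tested with limma (pseudocount 1), no TMM factors, and the number of cells as library size, the last pair added after the data were seen. Deviations from group means correlated positively in all 40 pairs of mice from the same pool (0.143 to 0.607), so the pool pairs the mice, and its value is given where it changed a call. The test was checked on simulated counts drawn separately for each mouse without a pool effect, so the check did not cover the pairing by pool.

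Genes to name were the 4 members, up to 3 pathway genes per comparison with the largest change among those called, Tyro3, members of lists of which few were called, and 3 genes most like each member. The members and lists were chosen with earlier results of these data known, and other pathway genes named were chosen after their values were seen. UMI totals of 17150296 to 102446549 per mouse limit precision most for rare genes such as Tyro3. Sex was not a covariate. The values of 1 pathway gene are not reported here.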

Additional observations from a re-analysis of the deposited data

Results flagged for a closer look

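In 124 groups of 4 mice, 6 values stood apart from the other 3 by more than Dixon's 95% critical value, where chance gives about 1 in 20 groups. For Axl in cluster 1, AppSAA ATV:ISO mouse 2 was lowest at 139.7 CPM. For Mertk, WT ATV:4D9 mouse 1 was lowest in cluster 2 (178.0 CPM) and in cluster 5 (154.7 CPM). For Gas6 in cluster 1, AppSAA 4D9 mouse 2 was highest at 180.7 CPM. For Pros1, AppSAA ATV:4D9 mouse 2 was highest in cluster 2 (209.8 CPM) and AppSAA 4D9 mouse 3 lowest in cluster 3 (196.0 CPM).

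The response to ATV:4D9 differed between genotypes by the interaction term of the edgeR fit for pathway genes that included Abca1 and Itgb3. AppSAA minus WT was 0.81 for Abca1 (adjusted p = 0.0156) and -0.56 for Itgb3 (adjusted p = 0.00454), both on the log2 scale. Per cell the values were 0.46 (adjusted p = 0.415), no longer called, and -0.91 (adjusted p = 0.00537).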

How the results depend on the processing

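Of the 28 member results of whole mice, all 28 kept their call and direction with size factors by relative log expression and with limma-voom, and 27 with DESeq2, where the Axl interaction was -0.60. Only alternatives that changed a call or direction are given, and the cause was not tested. Depth limits Tyro3 in whole mice and Axl in cluster 0.

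With the pool as a replicate block, calls were gained for Gas6 and ATV:4D9 in WT mice (-0.17), AppSAA under ATV:ISO for Mertk (-0.30) and Gas6 (0.22), Axl against 4D9 (0.30), Pros1 and genotype under ATV:4D9 (-0.11), and the interactions of Axl (-0.54), Mertk (0.25) and Gas6 (-0.32). Within clusters the block gained Axl in cluster 0 for genotype (0.58) and for ATV:4D9 in AppSAA mice (0.83), Pros1 there (0.24), and Gas6 in cluster 1 (0.33), 2 (-0.37, genotype) and 4 (-0.36). The block changed no other call. The shares of all genes called with the block in these comparisons are not given, so these gains have no background to be read against.

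Without cells over 25000 UMIs, ATV:4D9 in AppSAA mice gave Axl 0.41 against ATV:ISO and 0.48 against 4D9, Gas6 -0.35 (no longer called) and Pros1 0.05 and 0.05. From mean per-cell CPM, Axl was 0.57 and 0.63 and Pros1 for genotype under ATV:4D9 -0.25, all called, and signs turned for Pros1 with ATV:4D9 in WT mice (-0.02), Gas6 with AppSAA (-0.04), and Mertk and Pros1 with 4D9 (-0.01 and -0.01). Without a filter on low counts Pros1 was 0.01 with AppSAA, and 0.00 and 0.00 with ATV:4D9 against ATV:ISO and 4D9. Without TMM factors, calls were gained for Gas6 in WT mice (-0.29), Mertk (-0.49) and Pros1 (-0.22) with AppSAA and Pros1 under ATV:4D9 (-0.25), and Pros1 turned with ATV:4D9 in WT (-0.06) and with 4D9 (-0.01).

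Scaled by cells, ATV:4D9 in WT mice gave Mertk 0.15, Gas6 0.67 and Pros1 0.90. AppSAA under ATV:ISO gave Gas6 0.45 and Pros1 0.20. In AppSAA mice ATV:4D9 gave Axl 0.71, Mertk 0.05, Gas6 0.01 and Pros1 0.48 against ATV:ISO, and 0.75, -0.01, -0.07 and 0.44 against 4D9. Interactions were -0.90 for Axl, -0.09 for Mertk, -0.67 for Gas6 and -0.41 for Pros1. The median gene moved by 0.79, 0.18, 0.47, 0.42 and -0.30 in the same order of comparisons.

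With 1 mouse left out, results that changed ranged as follows. AppSAA under ATV:ISO gave Mertk -0.38 to -0.22 and Pros1 -0.06 to 0.01. The Axl interaction was -0.69 to -0.40, Mertk by genotype under ATV:4D9 -0.14 to 0.05, and Axl against 4D9 0.20 to 0.37. Pros1 with ATV:4D9 in AppSAA mice was -0.06 to 0.04 against ATV:ISO and -0.07 to 0.04 against 4D9. With 4D9, Mertk was -0.05 to 0.08, Gas6 -0.06 to 0.12 and Pros1 -0.05 to 0.05. In cluster 0, ATV:4D9 in WT mice gave Axl -0.13 to 0.41, Mertk -0.08 to 0.11 and Pros1 0.33 to 0.43, genotype gave Mertk -0.14 to 0.03 and Gas6 -0.19 to 0.02, and ATV:4D9 in AppSAA mice gave Mertk -0.01 to 0.14. Pros1 was -0.03 to 0.05 in cluster 1 and -0.09 to 0.07 in cluster 5, and Axl -0.16 to 0.01 in cluster 2 (ATV:4D9 against ATV:ISO).

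In AppSAA ATV:ISO mice the cluster with the highest mean CPM was divided by the lowest within each mouse, and the ratios were averaged. This gave 3.49 for Mertk, 1.41 for Gas6 and 1.48 for Pros1, and with finer clusters 5.89, 1.53 and 2.07. The 3.49 for Mertk set cluster 0 against cluster 4, which had 27 to 74 cells per mouse. The same ratio of shares of cells with a UMI was 2.51, 1.20 and 1.36 after thinning and 1.21, 1.37 and 1.14 without it. The highest and lowest clusters were taken anew for each measure. For Pros1 cluster 0 was highest after thinning (50.5%). Without thinning cluster 4 was highest (90.8%) and cluster 3 lowest (79.5%), close to cluster 0 (80.0%).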
